A study of Homo sapiens with 4 samples.

Results

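The 10 tubulin isotype genes examined here were TUBA1A, TUBA1B, TUBA1C and TUBA4A, which encode α-tubulins, and TUBB, TUBB2A, TUBB2B, TUBB3, TUBB4B and TUBB6, which encode β-tubulins. They were taken by name from the 61541 genes of a count table made from MHCC97H cells, an established human hepatocellular carcinoma (HCC) line. RNA-seq of this line compared 2 control libraries (shCon, genotype control) with 2 libraries carrying an shRNA against UBXN1 (shUBXN1, UBXN1 knockdown). UBXN1 is a UBX domain-containing adaptor of the ubiquitin system, and the comparison asks which transcripts depend on it in HCC cells. Both groups came from the same line, and the sources used here do not state which of the study's shRNAs made the shUBXN1 libraries. No label states that the 2 libraries of a group were separate cultures, so the p-values measure only the spread between these libraries.

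Microtubules are hollow polymers of αβ-tubulin heterodimers, and each class of subunit is encoded by several genes whose products differ mainly in their acidic carboxy-terminal tails. These tails carry glutamylation and other modifications and are contacted by motors and microtubule-associated proteins. Newly made tubulin is folded by prefoldin, the CCT chaperonin and a set of tubulin-binding cofactors before heterodimers form. Cells also adjust tubulin mRNA to the pool of free heterodimers: TTC5 reads the amino-terminal peptide of nascent tubulin on the ribosome, and SCAPER and the CCR4-NOT subunit CNOT11 then bring about decay of that mRNA.

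Counts of UBXN1 mRNA were 1788 and 1817 in the shCon libraries against 416 and 433 in the shUBXN1 libraries, which is 24.4% of the control level. The log2 fold change was -2.03 ± 0.0963 (SE), with a Benjamini-Hochberg adjusted p of 9.98e-10 in the edgeR quasi-likelihood fit over 16863 genes, the fit used throughout. The libraries held 23373700 to 27380508 counts, and mitochondrial transcripts took 5.28% and 5.59% of them in shCon and 7.43% and 8.27% in shUBXN1. Their part in the tubulin values was not tested. Of 10 hepatocyte markers, 9 had counts and GPC3 was at 0, with a summed level of 4360 to 4520 CPM (counts scaled to the TMM-adjusted total of the library) in shCon and 3450 to 4040 in shUBXN1. Most of that sum was the keratin genes KRT8 and KRT18. Of the 9 tested markers, 5 were lower and 2 higher. ALB was at 25.6% and APOB at 27.8% of control in CPM. TTR was at 11.5%, with 38 and 34 counts in shCon and 5 and 3 in shUBXN1. KRT18 and SERPINA1 were at 124% and 132%. The 5 lower markers were lower in the same libraries as the tubulin genes, and their part in the tubulin values was not tested. Of 10 neuronal markers, listed because TUBB3 and TUBB2B are best known from neurons, 7 had counts, and ELAVL4, INA and NEFM were at 0. The summed level was 17.9 to 18 CPM in shCon and 13.8 to 14 CPM in shUBXN1. Most of that sum was SYT1, at 14.4 and 14.9 CPM in shCon and 10.2 and 10.5 CPM in shUBXN1. Of the 3 tested, SYT1 was lower, and SNAP25 and SYP did not pass the test. ELAVL3, not tested, had 3 and 3 counts in shCon and 10 and 7 in shUBXN1. A list of 10 blood, endothelial and fibroblast markers summed to 149 to 156 CPM in shCon and 133 to 134 CPM in shUBXN1, with CD3E at 0. Of the 6 tested, 2 were higher and 3 lower, so the sum, most of which was CD68, covers members that moved in both directions. COL1A1 was at 892% of control, with 10 and 4 counts in shCon and 58 and 59 in shUBXN1. DCN was at 10.4%, with 17 and 13 counts in shCon and 2 and 1 in shUBXN1, and LUM was at 47.9%.

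The starts of the coding sequences are shown because they encode the peptide read by TTC5, and because they sort the genes into groups that are referred to with the values below. The first 30 coding bases are given from the GENCODE 44 transcripts (GRCh38), with the 12 bases that encode the recognised peptide in capitals.
TUBA1B: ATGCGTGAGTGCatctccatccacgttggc
TUBA4A: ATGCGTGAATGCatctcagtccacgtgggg
TUBB: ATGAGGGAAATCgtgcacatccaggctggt
TUBB4B: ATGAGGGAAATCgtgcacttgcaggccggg
TUBB3: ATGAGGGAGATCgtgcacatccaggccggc
TUBB6: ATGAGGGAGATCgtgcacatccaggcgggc
TUBB2A: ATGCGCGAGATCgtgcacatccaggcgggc
TUBB2B: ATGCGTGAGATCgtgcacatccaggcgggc
TUBA1A and TUBA1C had the same 30 bases as TUBA1B. In the capitals, TUBB matched TUBB4B and TUBB3 matched TUBB6. TUBB2A and TUBB2B each had 12 bases of their own and differed from each other at 1 of the 30 positions. Within each class, the differences in the capitals change no residue of the encoded peptide.

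The ends of the coding sequences are shown because they encode the tails in which the isotypes differ most, and because similar ends limit how reads can be assigned. The last 60 bases are given for 6 of the genes, with the final 48, stop codon included, in capitals.
TUBA4A: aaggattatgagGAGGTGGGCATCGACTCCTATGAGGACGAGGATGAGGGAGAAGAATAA
TUBB: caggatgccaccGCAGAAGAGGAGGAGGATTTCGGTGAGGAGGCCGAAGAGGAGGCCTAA
TUBB4B: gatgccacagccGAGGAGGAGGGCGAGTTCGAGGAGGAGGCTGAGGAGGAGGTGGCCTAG
TUBB3: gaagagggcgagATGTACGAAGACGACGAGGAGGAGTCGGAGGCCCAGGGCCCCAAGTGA
TUBB2A: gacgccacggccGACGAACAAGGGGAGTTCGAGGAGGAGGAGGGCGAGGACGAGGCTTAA
TUBB2B: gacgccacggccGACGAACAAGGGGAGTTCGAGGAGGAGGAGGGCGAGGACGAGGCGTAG
TUBB2A and TUBB2B differed at 2 of these 60 positions and at 25 of their 1338 coding bases, an identity of 98.1%. The TUBA1B coding sequence was 97.2% identical to TUBA1A and 96.8% identical to TUBA1C, whereas identity between the classes was lower, for example 54.9% between TUBB and TUBA1B. Of all 100-base windows in the TUBB2A transcript, 53.66% also occurred in TUBB2B. The share of windows found in any other tubulin gene or tubulin pseudogene was 55.57% for TUBB2A, 48.71% for TUBB2B, 37.17% for TUBA1B, 21.17% for TUBA1A, 12.3% for TUBA1C and at most 5.42% for the other 5 genes. Genes outside the tubulin family were not searched for these windows. The deposited counts of all 10 genes were not whole numbers in any library, including those of TUBB6, which shared 0 windows. The counting tool is not stated, and how the fractions arose was not tested.

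Of the 10 genes, all had counts and 9 passed the filter on low counts, TUBA1A being the exception. At an adjusted p under 0.05, 6 of the 9 were lower in shUBXN1 and 1 was higher, while 28.2% of all genes tested were lower and 28% were higher. Over the 9 genes the log2 fold change had a median of -0.59, against 0.016 over all genes tested. The CPM of the 2 groups did not overlap for the same 7 genes, 6 with lower and 1 with higher values in shUBXN1, and 38.6% and 39.4% of all genes tested were separated in these directions. The study's thresholds, a fold change of 2 with unadjusted p under 0.05, were applied here to the edgeR fit. By them 4 of the 9 were lower and 0 higher, with 6.09% of all genes lower and 11.8% higher. The study itself used limma and TPM. With limma on log2(TPM + 1), TUBA4A changed by -1.365, but TUBA1B (-0.961), TUBA1C (-0.953) and TUBB2A (-0.974) stayed under 2-fold. Total count scaling also left TUBA1B (-0.935), TUBA1C (-0.929) and TUBB2A (-0.967) under 2-fold. All 3 tested α-tubulin genes fell to between 36.6% and 49.6% of control. Of the 6 β-tubulin genes, TUBB, TUBB4B and TUBB2A fell, TUBB2B rose, and TUBB3 and TUBB6 did not pass the test. RNA-seq of bulk cells gives each gene as a share of all RNA, so less tubulin mRNA per cell and fewer cells with high tubulin mRNA cannot be told apart.

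**Figure D1:**
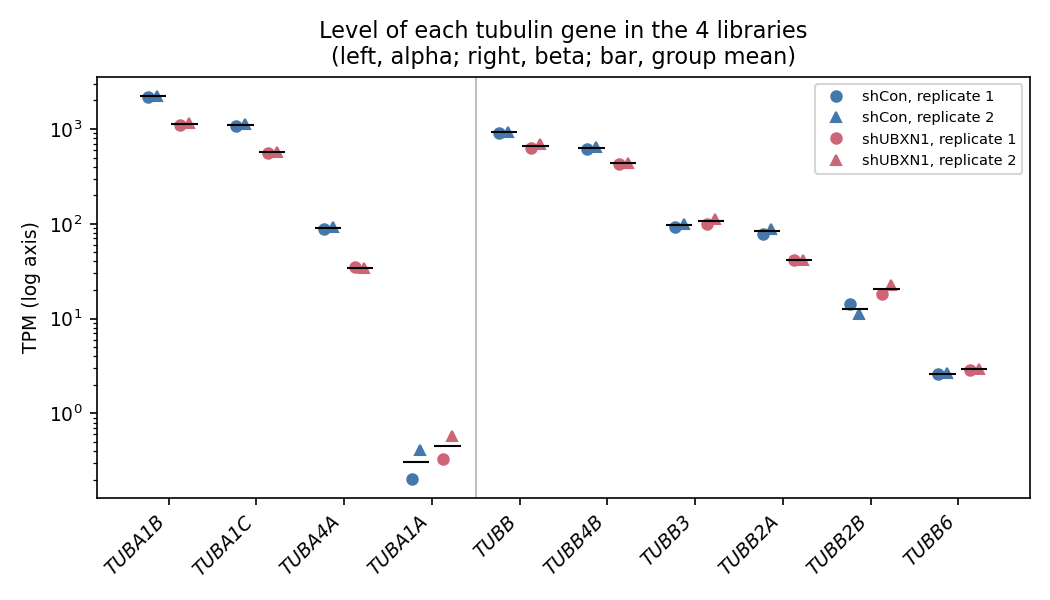
TPM (count per transcript length, scaled to the library; log axis) of the 10 tubulin genes in each library, with circles for replicate 1, triangles for replicate 2, blue for shCon, red for shUBXN1 and a bar at each group mean. TUBA1B, TUBA1C, TUBA4A, TUBB, TUBB4B and TUBB2A were lower in each shUBXN1 library than in either control, and TUBB2B was higher.

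TUBA1B (chr12:49127782-49131397, minus strand, 4 exons), the main α-tubulin of most dividing cells, had the highest level of the 10 genes in both groups. Its TPM, a count per transcript length that allows genes to be compared, was 2190 and 2230 in shCon and 1100 and 1170 in shUBXN1. Its CPM went from 1800 ± 60.3 (SD, n = 2) in the controls to 887 ± 85.9 (SD, n = 2) on knockdown, so that neither shUBXN1 library came near the control values. The log2 fold change was -1.02 ± 0.0922 (SE), with an edgeR adjusted p of 4.38e-07. The antisense gene TUBA1B-AS1 covers 43.956% of the exon bases of TUBA1B on the opposite strand, and whether strand was used in counting is not stated. TUBA1B-AS1 had 531.98 and 495 counts in the controls and 177.73 and 333.63 on knockdown, which is 0.869% to 1.5% of the TUBA1B counts.

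TUBA1C (chr12:49188736-49274600, plus strand, 4 exons in its canonical transcript) encodes a ubiquitous α-tubulin close to that of TUBA1B. TUBA1C stood at 1080 and 1120 TPM in shCon and at 562 and 576 TPM in shUBXN1, without overlap. This was a log2 fold change of -1.01 ± 0.0845 (SE), with an edgeR adjusted p of 1.94e-07. TUBA1B and TUBA1C fell in proportion: the ratio of TUBA1C to TUBA1B in TPM was 0.494 and 0.503 in shCon and 0.511 and 0.491 in shUBXN1, and the groups overlapped. A lncRNA on the opposite strand, ENSG00000258232, covers 14.953% of the TUBA1C exon bases. Its counts were 12.6% to 14.2% of those of TUBA1C, and it fell as well, by 0.93 on the log2 scale.

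TUBA4A (chr2:219249710-219277902, minus strand, 4 exons in its canonical transcript) encodes an α-tubulin whose coding sequence ends without a tyrosine codon. TUBA4A gave 88.1 and 92.9 TPM in shCon and 34.8 and 34.2 TPM in shUBXN1. The control level was thus about that of TUBB3, and the shUBXN1 level was 36.6% of control in CPM. The log2 fold change of -1.45 ± 0.0808 (SE) was the largest fall of the 9 tested genes, with an edgeR adjusted p of 3.98e-09, and 2.75% of all genes tested had a lower value. Its 95% interval, -1.62 to -1.28, lay below that of TUBA1B, -1.22 to -0.82. A difference between these genes was not itself tested. STK16 overlaps 16.982% of the TUBA4A exon bases on the opposite strand and had 239.57 to 317.16 counts in a library, against 814.25 to 2363.84 for TUBA4A.

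TUBA1A (chr12:49184686-49189080, minus strand, 4 exons), the α-tubulin prominent in developing neurons, was near the limit of detection. It had 4.5 and 8.14 counts in the controls and 6.3 and 11.26 on knockdown. These values overlapped and were too low for the test, and 17.93% of its 100-base windows are shared with TUBA1B, a gene with at least 20444.66 counts in each library.

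TUBB (chr6:30717435-30725538, plus strand, 4 exons in its canonical transcript), the widely expressed class I β-tubulin, was the most abundant β-tubulin transcript in both groups. TUBB measured 918 and 938 TPM in shCon and 634 and 689 TPM in shUBXN1. Its CPM fell from 1160 ± 41.9 (SD, n = 2) to 799 ± 88.5 (SD, n = 2), or 68.6% of control. Its log2 fold change was -0.54 ± 0.0918 (SE), with an edgeR adjusted p of 0.000164. This fall was smaller than those of the α-tubulin genes, and 18% of all genes tested had a lower value.

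TUBB4B (chr9:137241287-137243707, plus strand, 4 exons), the class IVb β-tubulin found in most tissues and in cilia, shares the capital bases of its coding start with TUBB. TUBB4B measured 613 and 645 TPM in shCon and 430 and 441 TPM in shUBXN1, or 66.4% of control in CPM. On the log2 scale TUBB4B changed by -0.59 ± 0.082 (SE), with an edgeR adjusted p of 2.85e-05. TUBB4B and TUBB moved by similar amounts, and their ratio in TPM was 0.667 and 0.688 in shCon and 0.677 and 0.639 in shUBXN1, which overlapped.

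TUBB2A (chr6:3153497-3157544, minus strand, 4 exons) and TUBB2B (chr6:3223324-3231730, minus strand, 4 exons in its canonical transcript) encode the class II β-tubulins, are neighbours on the same chromosome arm and differ by few bases, as shown above. TUBB2A had 78.8 and 87.8 TPM in shCon and 41.8 and 41.9 TPM in shUBXN1, and TUBB2B had 14.1 and 11.3 TPM in shCon and 18 and 22.6 TPM in shUBXN1. The pair therefore moved in opposite directions, each without overlap between groups. For TUBB2A the log2 fold change was -1.05 ± 0.0887 (SE), with an edgeR adjusted p of 2.18e-07. For TUBB2B it was 0.63 ± 0.15 (SE), or 155% of control in CPM, with an edgeR adjusted p of 0.00266. Without replicate 2 of shUBXN1 the rise of TUBB2B was 0.39, still with an edgeR adjusted p of 0.0192. The ratio of TUBB2A to TUBB2B in TPM went from 5.59 and 7.8 to 2.33 and 1.85. Summed over both genes, which no division of their shared reads can change, the level was 75.9 and 82.8 CPM in shCon and 47.2 and 55.2 CPM in shUBXN1, or 64.5% of control. How reads from their common stretches were divided between them was not tested. On the opposite strand, PSMG4 covers 4.183% of the TUBB2B exon bases, and its counts were 50.7% to 161% of those of TUBB2B. BPHL covers 2.821% of the TUBB2A exon bases on the opposite strand, and its counts were 16.2% to 36.1% of those of TUBB2A.

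The regions upstream of this pair, whose coding sequences are nearly the same, are shown beside its values. Their part in the opposite changes was not tested. Each window, from RefSeq (GRCh38.p14), is 300 bases long, spans the annotated start and lies mostly upstream of it, and capitals mark the motif CCAAT or its reverse complement ATTGG, searched on both strands, as were TATAAA and TTTGAA. The windows are chr6:3157495-3157794 for TUBB2A and chr6:3227604-3227903 for TUBB2B, both on the minus strand.
TUBB2A: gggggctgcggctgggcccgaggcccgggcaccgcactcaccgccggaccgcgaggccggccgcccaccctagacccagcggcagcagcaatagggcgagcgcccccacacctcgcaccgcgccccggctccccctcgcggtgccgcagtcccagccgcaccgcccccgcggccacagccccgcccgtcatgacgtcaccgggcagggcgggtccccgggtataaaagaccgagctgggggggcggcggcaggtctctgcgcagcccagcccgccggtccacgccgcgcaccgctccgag
TUBB2B: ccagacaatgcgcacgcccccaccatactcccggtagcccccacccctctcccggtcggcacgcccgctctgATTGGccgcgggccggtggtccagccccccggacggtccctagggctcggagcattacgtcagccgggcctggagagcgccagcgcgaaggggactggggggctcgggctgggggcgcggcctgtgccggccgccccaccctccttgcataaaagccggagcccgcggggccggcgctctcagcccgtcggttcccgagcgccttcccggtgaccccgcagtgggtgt
The TUBB2B window held 1 match and the TUBB2A window 0. Among 35116 such windows of all genes, 34.6% held at least 1 match, and 9 of the 15 windows of the tubulin genes did. These 15 windows belong to the 10 genes, as TUBA1C, TUBB, TUBB3 and TUBB6 each have more than 1. Overlapping windows of TUBA1C hold the same CCAAT site, which is counted again among the 9. TATAAA had 1 match in the TUBB2A window and 0 in the TUBB2B window, and it occurred in 11.5% of all windows and in 1 of the 15. TTTGAA was in neither window of the pair, in 15.2% of all windows and in 4 of the 15. These 4 were windows of TUBA1C and TUBB4B.

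TUBB3 (chr16:89921392-89938761, plus strand, 4 exons in its canonical transcript), the class III β-tubulin of neurons that many carcinomas also express, was the fifth most abundant of the 10 genes by mean TPM in both groups. TUBB3 had 77.1 and 86.2 CPM in shCon and 79.1 and 95.1 CPM in shUBXN1, and the groups overlapped. The log2 fold change was 0.09 ± 0.0925 (SE), with a 95% interval of -0.11 to 0.29 and an edgeR adjusted p of 0.413. Without replicate 1 of shUBXN1 it was 0.22 and passed the test, with an edgeR adjusted p of 0.0158. Without replicate 2 of shUBXN1 it was -0.045, so the sign rests on that library. A readthrough gene on the same strand, ENSG00000198211, covers 21.345% of the TUBB3 exon bases but had at most 16.74 counts.

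TUBB6 (chr18:12307669-12344320, plus strand, 4 exons in its canonical transcript), the class V β-tubulin, has the same capital bases at its coding start as TUBB3. TUBB6 had 63.64 and 59.07 counts in the controls and 61.83 and 64.13 on knockdown, with overlapping CPM. In the fit TUBB6 had a log2 fold change of 0.09 ± 0.283 (SE), with a 95% interval of -0.51 to 0.70 and an edgeR adjusted p of 0.802, so no change was detectable at this depth within that interval. In TPM, which carries no TMM scaling, the values of TUBB6 (2.59 and 2.64 in the controls, 2.88 and 2.93 on knockdown) and of TUBB3 (92 and 99.8, then 100 and 112) did not overlap, so their separation depends on the scale. AFG3L2 on the opposite strand covers 21.238% of the TUBB6 exon bases and had 3565.93 to 4906.87 counts, far more than TUBB6.

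**Figure D2:**
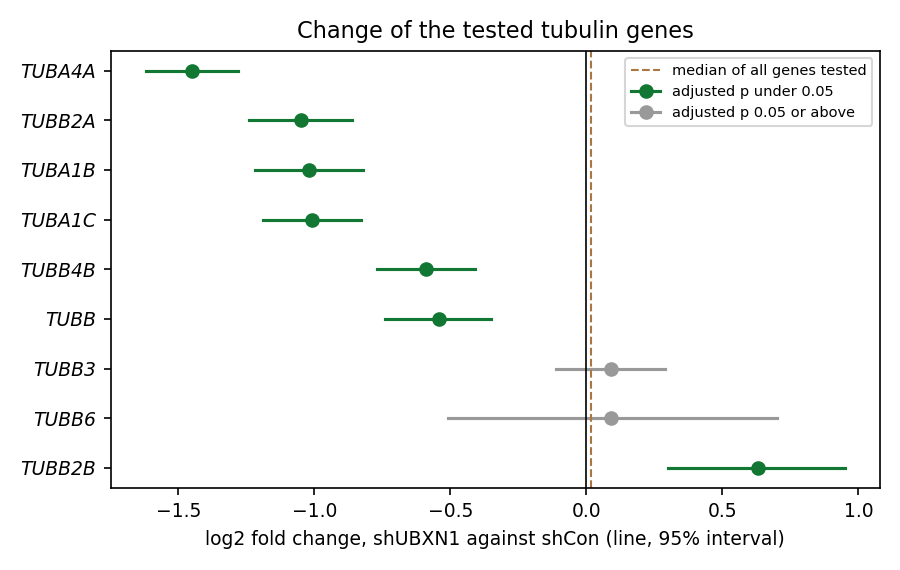
Log2 fold change of the 9 tested tubulin genes, shUBXN1 against shCon, with the 95% interval as a line, green where the edgeR adjusted p was under 0.05, and the median of all 16863 genes tested (0.016) as a dashed line. TUBA4A (-1.45) had the largest fall, TUBB3 and TUBB6 (both 0.09) have intervals that include 0, and TUBB2B (0.63) lies to the right.

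The order of the levels in shCon, in mean TPM, was TUBA1B (2210), TUBA1C (1100), TUBB (928), TUBB4B (629), TUBB3 (95.9), TUBA4A (90.5), TUBB2A (83.3), TUBB2B (12.7), TUBB6 (2.61) and TUBA1A (0.307). In this order the libraries of TUBB3 and TUBA4A overlapped and no other neighbours did. In shUBXN1 the order differed at TUBB (662), which stood above TUBA1C (569), and at TUBB2A (41.9), which stood above TUBA4A (34.5), and no neighbours overlapped. Both changes of order depend on the deposited gene lengths. In mean CPM, TUBB stood above TUBA1C in shCon (1160 and 933) and in shUBXN1 (799 and 462). TUBA4A likewise stood above TUBB2A in shCon (92.5 and 67.2) and in shUBXN1 (33.9 and 32.4). For TUBA1C that length is 1695 bases, against 2823 in its canonical transcript.

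The summed level of the 4 α-tubulin genes was 3370 and 3450 TPM in shCon and 1700 and 1780 TPM in shUBXN1, or 51.1% of control. That of the 6 β-tubulin genes was 1720 and 1780 TPM in shCon and 1230 and 1310 TPM in shUBXN1, or 72.4% of control. Both classes were thus lower in each shUBXN1 library, with the larger drop in α-tubulin mRNA. The ratio of α- to β-tubulin mRNA was 1.96 and 1.93 in shCon and 1.38 and 1.36 in shUBXN1, with no overlap. Because it is formed within a library, this ratio does not depend on library scaling, but its size depends on the deposited gene lengths. In mean CPM, which uses no lengths, the α-tubulin genes summed to 2820 and the β-tubulin genes to 1820 in shCon. In shUBXN1 these sums were 1380 and 1270. The 10 genes together took 0.439% and 0.462% of all counts in shCon and 0.261% and 0.283% in shUBXN1. Tubulin pseudogenes, 16 named for the α class and 35 for the β class, made up at most 0.505% and 0.405% of the counts of their class in a library.

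Within the α class the mix of isotypes changed little. TUBA1B made up 64.9% ± 0.32 (SD, n = 2) of summed α-tubulin TPM in shCon and 65.3% ± 0.658 in shUBXN1, and TUBA1C 32.4% ± 0.261 and 32.7% ± 0.575, differences smaller than the sum of the SDs. The share of TUBA4A was 2.62% and 2.7% in shCon and 2.05% and 1.92% in shUBXN1, without overlap. Within the β class, TUBB made up 53% ± 0.615 in shCon and 52.2% ± 0.659 in shUBXN1, and TUBB4B 35.9% ± 0.34 and 34.3% ± 0.959. The share of TUBB3 was 5.35% and 5.6% in shCon and 8.19% and 8.57% in shUBXN1, a difference of 2.91 percentage points in a gene whose own level did not pass the test. The share of TUBB2A was 4.59% and 4.92% in shCon and 3.41% and 3.2% in shUBXN1, while that of TUBB2B was 0.82% and 0.631% in shCon and 1.47% and 1.73% in shUBXN1.

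**Figure D3:**
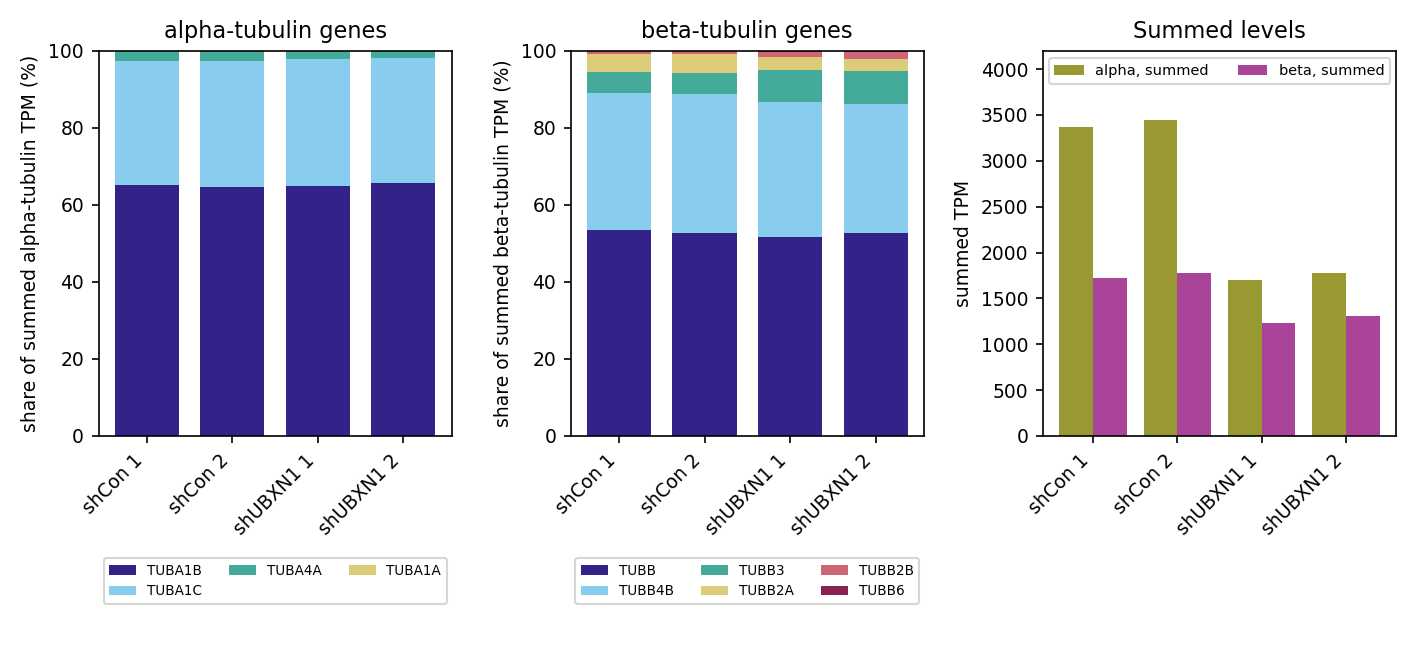
Share of each gene in the summed TPM of its class in the 4 libraries (left, α-tubulin; middle, β-tubulin; both in percent), and the summed TPM of each class (right). The TUBA1B and TUBB shares were 64.7% to 65.7% and 51.7% to 53.4%, the TUBB3 share was 5.35% to 5.6% in shCon and 8.19% to 8.57% in shUBXN1, and the summed α-tubulin level was 1700 to 1780 TPM in shUBXN1 against 3370 to 3450 TPM in shCon.

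By the distance between their centred log2 CPM over the 4 libraries, the genes most like TUBA4A among 11149 candidates were AP1B1 (distance 0.028), ALDH5A1 (0.0411) and SH3GL1 (0.0416), with log2 fold changes of -1.44, -1.49 and -1.46. Those most like TUBB2B were TEF (0.0773), CLP1 (0.107) and FIBCD1 (0.14), with log2 fold changes of 0.59, 0.59 and 0.58. These 4 libraries form 2 groups, so the likeness is mostly one of the size of the change.

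Of the 13 further tubulin genes, 9 were tested: 4 were higher, 0 were lower, and 5 did not pass the test, with a median of 0.63 on the log2 scale, beside 28% of all genes tested called higher and 28.2% called lower. TUBD1, which encodes δ-tubulin of the centriole, had 296 and 246.23 counts in the controls and 506.73 and 518 on knockdown, a log2 fold change of 0.98 (edgeR adjusted p = 5.82e-06). TUBG2, a γ-tubulin gene, rose by 0.78 (edgeR adjusted p = 6.44e-05), whereas TUBG1, the main γ-tubulin gene, changed by -0.10 and did not pass the test (edgeR adjusted p = 0.318). TUBAL3, an α-tubulin-like gene, had 3 and 0 counts in the controls and 11 and 11 on knockdown (edgeR adjusted p = 0.0134), and TUBA3D had 5.17 and 5.08 counts in the controls and 15.63 and 11.97 on knockdown (edgeR adjusted p = 0.045). The TUBA3D call was lost in 11 of 13 alternatives and the TUBAL3 call in 2 of 13.

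Of the 3 genes of tubulin mRNA autoregulation, SCAPER had 246 and 176 counts in the controls and 368 and 349 on knockdown and rose by 0.83 on the log2 scale (edgeR adjusted p = 0.000163). TTC5 reads the peptide that the capitals above encode. The gene had 462.53 and 454 counts in the controls and 472 and 479 on knockdown. Its log2 fold change was 0.11 (edgeR adjusted p = 0.419). CNOT11 had a log2 fold change of 0.01 (edgeR adjusted p = 0.954).

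The genes of tubulin folding moved in both directions. Of 14 genes of the CCT chaperonin, which folds newly made tubulin and actin, and of prefoldin, which delivers them to it, 13 were lower and 0 higher, with a median log2 fold change of -0.46, against 28.2% lower, 28% higher and a median of 0.016 over all genes tested. CCT6A had 15346.99 and 13682.96 counts in the controls and 8014.97 and 8565 on knockdown, a log2 fold change of -0.75 (edgeR adjusted p = 2.95e-06). CCT3 fell by 0.62 (edgeR adjusted p = 3.42e-05) and PFDN6 by 0.71 (edgeR adjusted p = 4.94e-05). PFDN5 alone of the 14 did not pass the test, at -0.01 (edgeR adjusted p = 0.927). Of the 7 tubulin folding cofactors, which act after the chaperonin, 4 were higher and 1 lower, with a median of 0.32, beside the same 28% and 28.2% over all genes. ARL2, the GTPase of the cofactor complex, rose by 0.71 (edgeR adjusted p = 2.74e-06) and TBCB, which binds α-tubulin, by 0.54 (edgeR adjusted p = 3.16e-05), while TBCA, which binds β-tubulin, fell by 0.23 (edgeR adjusted p = 0.0199).

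Of 19 tested enzymes that modify tubulin, 6 were higher and 3 lower, with a median log2 fold change of 0.20. The higher share is near the 28% of all genes called higher, and 28.2% of all genes were called lower. VASH1, a carboxypeptidase that removes the terminal tyrosine of α-tubulin, had 76.49 and 41.78 counts in the controls and 154.33 and 133.22 on knockdown, a log2 fold change of 1.35 (edgeR adjusted p = 0.00044), while its partner SVBP fell by 0.43 (edgeR adjusted p = 0.0329). HDAC6, a tubulin deacetylase, rose by 0.80 (edgeR adjusted p = 1.5e-06). AGBL1, of the family that trims glutamate chains, had 7 and 4 counts in the controls and 32 and 34 on knockdown (edgeR adjusted p = 0.000672), a call lost in 1 of 13 alternatives, limma on log2(TPM + 1). TTLL12, of the tubulin tyrosine ligase-like family, had 3524 and 3155 counts in the controls and 1536 and 1605 on knockdown, a log2 fold change of -1.03 (edgeR adjusted p = 6.58e-08). Tubulin tyrosine ligase itself, TTL, did not pass the test (0.08, edgeR adjusted p = 0.35).

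Of 10 genes of the γ-tubulin ring complex and its anchors, which nucleate microtubules, 4 were lower and 1 higher, with a median of -0.18, where 28.2% of all genes were lower and 28% higher. NEDD1, which recruits the complex, fell by 0.60 (edgeR adjusted p = 4.01e-05). Of 16 tested microtubule stabilisers and plus-end proteins, 5 were higher and 5 lower, with a median of 0.05, so both shares are near those of all genes (28% and 28.2%). The higher ones included MAP1A, with 880 and 811 counts in the controls and 2165 and 2064 on knockdown (log2 fold change 1.38, edgeR adjusted p = 3.9e-09), and MAPT, the gene of tau, with 105 and 70 counts in the controls and 200 and 202 on knockdown (1.27, edgeR adjusted p = 8.94e-05). MAP1B, with 16 to 73 counts in a library, had a log2 fold change of 1.11 (edgeR adjusted p = 0.0299), a call lost in 4 of 14 alternatives. Without replicate 1 of shCon the MAP1B value was 2.005, and without replicate 2 of shCon it was 0.58. The lower ones included CKAP5, a microtubule polymerase (-0.53, edgeR adjusted p = 3.01e-05), and MAPRE2, a plus-end tracking protein (-0.55, edgeR adjusted p = 6.29e-05).

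Of 13 tested destabilisers and severing enzymes, 6 were lower and 3 higher, with a median of -0.30, beside 28.2% and 28% of all genes. KIF2C, a kinesin that depolymerises microtubules at mitotic centromeres, fell by 0.98 (edgeR adjusted p = 1.14e-07), and KIF18A, a mitotic kinesin that limits microtubule growth, by 0.85 (edgeR adjusted p = 2.02e-06). STMN3, of the tubulin-sequestering stathmin family, had 81 and 52 counts in the controls and 123 and 138 on knockdown, a log2 fold change of 1.04 (edgeR adjusted p = 0.00232). The severing enzyme gene FIGN rose by 0.93 (edgeR adjusted p = 2.38e-05).

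ACTB, the gene of β-actin, the other main cytoskeletal subunit and likewise a client of the chaperonin, fell about as far as TUBA1B and TUBA1C. ACTB had 95846.28 and 88724.93 counts in the controls and 39193.85 and 46110.62 on knockdown, a log2 fold change of -1.05 ± 0.109 (SE) with an edgeR adjusted p of 1.58e-06. The other cytoplasmic actin gene, ACTG1, had 57968 and 52633 counts in the controls and 47944 and 52625 on knockdown, a log2 fold change of -0.08 that did not pass the test (edgeR adjusted p = 0.518). GAPDH, to which the study's qRT-PCR was normalised, had a log2 fold change of -0.04 ± 0.0956 (SE), with an edgeR adjusted p of 0.728 and a sign that flipped under total count scaling and on TPM. An α-tubulin antibody and a β-actin antibody are among the reagents that the study lists, and protein levels are outside the data used here.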

How the data were processed

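The authors deposited 1 table of expected counts per Ensembl gene with a gene length, not rounded, from poly(A) mRNA libraries. Per the labels' processing notes, HISAT2 2.0.4 and StringTie 1.3.0 were used. These notes name GRCh37 and the study's methods GRCh38, and the counting tool, annotation release and use of strand are not given in the sources used here. Of 61541 IDs, 61369 (99.7%) matched a symbol. Coordinates and coding sequences came from GENCODE 44 (GRCh38), since the table holds no coordinates, and promoter windows from RefSeq. Expected counts were rounded and fitted in edgeR 4.0.16 (R 4.3.3; TMM, filterByExpr with a minimum count of 10, quasi-likelihood test, Benjamini-Hochberg adjustment over 16863 genes). CPM used TMM-scaled totals, and TPM the deposited lengths. The design has 2 residual degrees of freedom per gene. DESeq2 1.42.0 and limma 3.58.1 served as alternatives. On simulated data with known changes, the fit recovered 56 of 100 genes changed by 1.5-fold and 71 of 100 changed by 2-fold. It also called 12 unchanged genes at an adjusted p under 0.05.

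The members and lists were chosen with earlier results of these data known. Beside the members, UBXN1, ACTB, GAPDH and TTC5, genes were named from each list where adjusted p was under 0.05, the fold at least 2 and the groups did not overlap (at most 3 in each direction, by p), as were the 3 genes nearest in pattern to the member with the largest rise and to that with the largest fall. Other genes named were chosen after their values were seen. Some coding ends are not reported here.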

Additional observations from a re-analysis of the deposited data

How the results depend on the processing

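All 6 falls and the rise of TUBB2B kept their direction and stayed past the adjusted p of 0.05 in each of the 14 alternatives: another tool or scale (DESeq2, limma-voom, limma on log2(TPM + 1), limma on log2(CPM + 1)), scaling by total counts, unrounded counts, removal of the GC trend, a replicate block, testing without the filter, a stricter minimum of 10 counts per library, and leaving out each library. Their log2 fold changes ranged from -1.51 to -1.36 for TUBA4A, from -0.66 to -0.44 for TUBB and from 0.39 to 0.82 for TUBB2B. With a fold change of 2 and unadjusted p under 0.05 in place of the adjusted p, 1997 genes were higher and 1027 lower. Tubulin genes counted in this section are the 10 members. By this rule 0 of them were higher, as the rise of TUBB2B, 0.63 on the log2 scale, was less than 2-fold. Leaving out 1 library gave 1 to 2 tubulin genes called higher, the second being TUBB3 without replicate 1 of shUBXN1. TUBB3 turned to -0.059 with the GC trend removed and ranged from -0.045 to 0.216 with 1 library left out. GAPDH turned to 0.041 under total count scaling and to 0.015 on TPM, and ranged from -0.096 to 0.003 with 1 library left out. The difference in the TUBA1B share ranged from -0.139 to 0.792 percentage points with 1 library left out. The causes of these changes of sign were not tested. The ratio of α- to β-tubulin mRNA, 70.6% of control, was 70 to 71.2% in alternatives chosen after seeing the data (coding length, pseudogenes added, counts, 1 library left out). The libraries share only replicate numbers (correlation of deviations 0.0393 over 16863 genes), and the fit with a replicate block called 5000 genes higher and 5023 lower, with 1 tubulin gene higher and 6 lower. Total count scaling called 5324 genes higher and 3969 lower. With 2 libraries a group, each leave-one-out fit has a lone sample that is assumed to vary like the other group.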
